A study of Mus musculus with 44 samples.

Results

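Fkbp4, Fkbp5 and Sgk1 are 3 of the 8203 genes measured in ribosome-bound RNA of Crh-expressing cells of the mouse amygdala, and they were picked by name because each belongs to the response of cells to glucocorticoids. All 3 had a value in each of the 44 mice. Every mouse carried a Crh-Cre transgene (B6;FVB-Tg(Crh-cre)1Kres/J) and 1 copy of the Cre-dependent Rosa26 fs-TRAP allele, which puts eGFP on the ribosomal protein L10a wherever Cre has acted, so the marked cells were set by the Crh transgene and its history of expression rather than by Crh in the adult. In TRAP (translating ribosome affinity purification) the tagged ribosomes are pulled down with their RNA, here from bilateral 1 mm punches centred on the amygdala of mice aged 10 to 16 weeks. Tone-alone mice (TA, n = 16, 10 males and 6 females) heard 5 tones with the shock generator off, fear-conditioned mice (FC, n = 12, 6 males and 6 females) heard 5 tones paired with a 0.65 mA shock, and extinction mice (EXT, n = 16, 10 males and 6 females) were conditioned in that way and on the following day heard 30 unpaired tones elsewhere. All were habituated on 2 days for 10 min and killed 2 h after the last session, but EXT mice alone had gone back to the animal facility in between.

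Glucocorticoid hormone acts through the glucocorticoid receptor (Nr3c1), which is folded for hormone binding by the chaperone HSP90 and its partners and then binds DNA at glucocorticoid response elements. Fkbp4 encodes FKBP52, an HSP90 co-chaperone that favours hormone binding and movement of the receptor to the nucleus. Fkbp5 encodes FKBP51, which competes for the same place on HSP90, lowers the receptor's affinity for hormone and is itself induced by glucocorticoids, so that it closes a short feedback loop. Sgk1 encodes serum- and glucocorticoid-regulated kinase, which is induced within hours of hormone and phosphorylates targets such as the ubiquitin ligase NEDD4L and the NDRG proteins. Sgk1 is also expressed by oligodendrocytes.

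The regulatory sequence in front of the transcript starts differed between the genes, and 1 of the 6 RefSeq starts of Sgk1 was preceded by a complete glucocorticoid response element. In the GENCODE vM21 annotation of build GRCm38, Fkbp4 (ENSMUSG00000030357.10) lies on the minus strand of chromosome 6 from 128429735 to 128438677, Fkbp5 (ENSMUSG00000024222.17) on the minus strand of chromosome 17 from 28399094 to 28517527, and Sgk1 (ENSMUSG00000019970.15) on the plus strand of chromosome 10 from 21882184 to 21999903. The sequences below come from RefSeq (build GRCm38.p6) and run 5′ to 3′ on the strand of the gene, ending 1 base before the transcript start, except that 21 bases of Fkbp4 that an annotated longer transcript covers are left out. Capitals mark matches, on either strand, to the full glucocorticoid response element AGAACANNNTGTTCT, its half-site AGAACA, the CCAAT box, the cAMP response element core TGACG, the TATA box TATAAA and the heat shock element GAANNTTCNNGAA.
Fkbp4, chr6:128438678-128438906, minus strand, upstream of the gene: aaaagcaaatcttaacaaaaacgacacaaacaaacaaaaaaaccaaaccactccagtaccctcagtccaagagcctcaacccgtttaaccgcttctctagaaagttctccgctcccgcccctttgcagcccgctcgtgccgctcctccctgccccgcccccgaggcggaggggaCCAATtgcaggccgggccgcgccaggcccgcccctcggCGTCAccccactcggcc
Fkbp5, chr17:28486150-28486399, minus strand, within an intron of longer transcripts: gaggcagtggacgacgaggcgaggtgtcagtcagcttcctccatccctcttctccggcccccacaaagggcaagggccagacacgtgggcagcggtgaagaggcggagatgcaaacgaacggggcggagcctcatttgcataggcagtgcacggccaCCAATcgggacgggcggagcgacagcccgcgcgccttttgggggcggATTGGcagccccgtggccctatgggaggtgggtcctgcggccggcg
Sgk1 start at 21993890, chr10:21993640-21993889, plus strand, within an intron of longer transcripts: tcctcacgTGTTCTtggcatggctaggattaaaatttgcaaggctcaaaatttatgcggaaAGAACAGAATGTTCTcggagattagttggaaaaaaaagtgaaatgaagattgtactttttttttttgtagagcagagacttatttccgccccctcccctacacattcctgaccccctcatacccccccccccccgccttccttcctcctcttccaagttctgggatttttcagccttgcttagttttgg
Sgk1 start at 21994666, chr10:21994416-21994665, plus strand, within an intron of longer transcripts: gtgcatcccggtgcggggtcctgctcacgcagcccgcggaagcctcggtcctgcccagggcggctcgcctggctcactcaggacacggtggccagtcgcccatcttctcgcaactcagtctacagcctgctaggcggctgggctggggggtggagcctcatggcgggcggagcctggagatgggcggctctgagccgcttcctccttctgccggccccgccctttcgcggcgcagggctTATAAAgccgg
The full element stood at positions -189 to -175 from the Sgk1 start at 21993890, and it contains 2 of the 3 half-sites of that window. Only 3 of the 32817 mouse promoter windows of 250 bases (0.00914%) held those letters, while 16.1% held a half-site. The windows of Fkbp4 and Fkbp5 held no half-site. They held CCAAT boxes, present in 33.8% of windows, and that of Fkbp4 also held a cAMP response element core, present in 17.7%. Unprinted Sgk1 windows held these too: CCAAT boxes before the starts at 21882184 and 21986104, and the core before that at 21978672. The Sgk1 starts at 21994666 and 21992223 had a TATA box, as did 12.4% of windows. A half-site also stood before the Sgk1 starts at 21882184 and 21992223, whose windows are not printed. The heat shock element, found in 153 windows, was in none of the 3 genes' windows. Sgk1 had 6 windows and Fkbp4 and Fkbp5 had 1 each, so Sgk1 had more chances of a match. These matches describe the letters of short windows, and the deposited values are per gene, so they do not say which start was used.

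Libraries held 12802113 to 20440351 reads over the measured genes, and at that depth the lowest read count behind a value was 994 for Fkbp4, 496 for Fkbp5 and 761 for Sgk1. Median library size was 18015590.5 reads in TA, 16977973 in FC and 15412341 in EXT. Mice fell into 5 labelled batches, of which batches 1, 2 and 5 held all groups, whereas batch 3 (5 mice) and batch 4 (1 mouse) held EXT mice only, and in those mice an effect of batch and one of extinction cannot be told apart. Values are log2 CPM (reads scaled to a common library size), and differences are on the same log2 scale.

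Fkbp4 was lowest after extinction. In TA mice its level ran from 7.66 through a median of 7.92 to 8.36, in FC mice from 7.36 through 7.77 to 8.11, and in EXT mice from 6.14 through 7.46 to 8.03. The means were 7.93 ± 0.19 (SD, n = 16) in TA, 7.79 ± 0.20 (SD, n = 12) in FC and 7.31 ± 0.53 (SD, n = 16) in EXT. The ranges overlapped, yet 12 of the 16 EXT mice lay below every TA mouse and 15 below the TA median. The lowest EXT values came from the batches without other groups: the 5 mice of batch 3 had 6.14, 6.56, 6.91, 6.96 and 7.78, and the mouse of batch 4 had 6.72.

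Fkbp5 had the same order of group means with more overlap. Its level ran from 5.61 through a median of 6.06 to 6.91 in TA, from 5.21 through 6.10 to 6.69 in FC and from 5.11 through 5.63 to 6.73 in EXT. The means were 6.09 ± 0.35 (SD, n = 16), 5.99 ± 0.53 (SD, n = 12) and 5.70 ± 0.36 (SD, n = 16). In EXT, 15 of 16 mice lay below the TA median and 6 below every TA mouse. The mouse of batch 4 had the lowest value of all, 5.11, and the highest EXT value, 6.73, belonged to batch 1, the batch in which Fkbp5 was highest over all mice (mean 6.42 ± 0.34, SD, n = 11, against 5.74 ± 0.32, SD, n = 17, in batch 5).

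Sgk1 varied most between mice and least between groups. It ran from 6.32 through a median of 7.08 to 8.70 in TA, from 6.17 through 6.98 to 8.09 in FC and from 5.83 through 6.84 to 8.26 in EXT, so that each group spanned nearly the whole range of the others. The means were 7.25 ± 0.72 (SD, n = 16), 6.96 ± 0.55 (SD, n = 12) and 6.99 ± 0.74 (SD, n = 16). The group means alone accounted for 3.82% of the variance of Sgk1 across the 44 mice, compared with 39.1% for Fkbp4 and 15.5% for Fkbp5. The 5 batch means accounted for 12.1% of the variance of Sgk1, 57.5% of that of Fkbp4 and 54.4% of that of Fkbp5, and batch and group overlap in these shares.

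**Figure D1:**
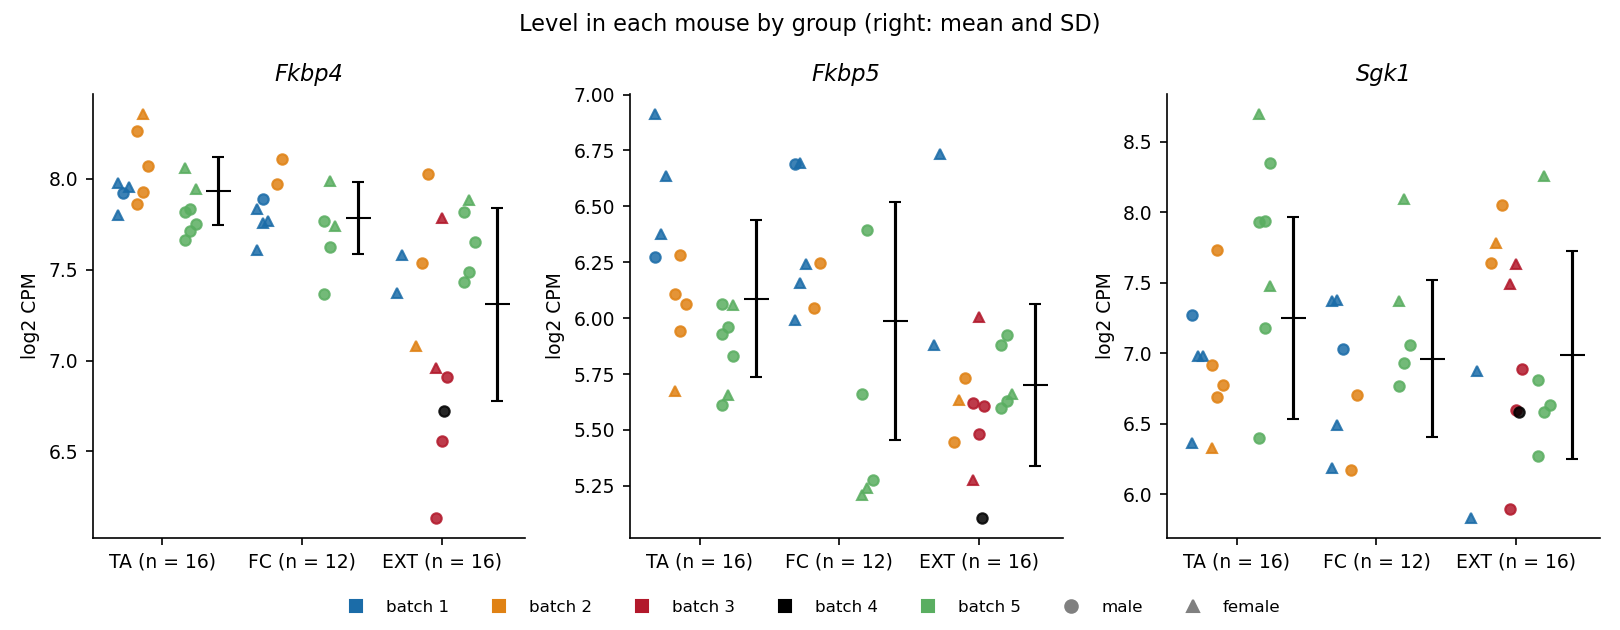
Level of Fkbp4, Fkbp5 and Sgk1 (log2 CPM, vertical axis) in each of the 44 mice by group, coloured by batch, with circles for males and triangles for females; the black marks give the mean and SD of each group. EXT mice of batches 3 and 4 hold the 5 lowest Fkbp4 values, and the Sgk1 values of the 3 groups span similar ranges.

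The comparison of EXT with TA mice asks what differs after extinction training relative to tones alone. With batch (as categories) and sex in the model, Fkbp4 was lower in EXT mice by a log2 fold change of -0.36 (SE 0.12, 95% interval -0.60 to -0.11), a ratio of 0.781. The unadjusted p was 0.0062 and the FDR-adjusted p over all genes was 0.149 in limma. Fkbp5 differed by -0.24 (SE 0.10, 95% interval -0.45 to -0.04), a ratio of 0.846, with an unadjusted p of 0.0228 and an adjusted p of 0.176 in limma. Sgk1 differed by -0.24 with a wider error (SE 0.26, 95% interval -0.78 to 0.30), and limma gave an adjusted p of 0.623. None of the 3 thus passed the adjusted threshold of 0.05 in this fit. Over all genes 0.0244% passed it, namely Iars, an isoleucyl-tRNA synthetase, and the immediate early gene Fos, which are named because they are the only genes called. Fkbp4 and Fkbp5 were among the 21.1% of genes with an unadjusted p under 0.05, and among the 11.0% that were also lower.

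Whether Fkbp4 or Fkbp5 passed depended on how batch entered the model, on the mice used and on the covariates. With the batch label as a number, limma gave -0.62 for Fkbp4 (SE 0.14, adjusted p = 0.013), -0.37 for Fkbp5 (SE 0.11, adjusted p = 0.0217) and -0.29 for Sgk1 (SE 0.23, adjusted p = 0.366). In that fit 21.4% of all genes passed, and 11.0% of all genes passed as lower. The batch labels carry no stated order, and this coding lets the EXT mice of batches 3 and 4 enter the contrast. With categories the mice of batch 3 bear on the estimate only through the sex term and the residual error. The 1 mouse of batch 4 then does not bear on it. Without batches 3 and 4, limma gave -0.35 for Fkbp4 (adjusted p = 0.0421) and -0.24 for Fkbp5 (adjusted p = 0.125). With the number coding and log2 library size or the mean of the Crh neuron markers added as a covariate, no gene passed in limma, and the Fkbp4 difference was -0.50 or -0.29.

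Inside the shared batches the direction of Fkbp4 and Fkbp5 was the same in each, and that of Sgk1 was not. The EXT mean of Fkbp4 differed from the TA mean by -0.44 in batch 1, -0.55 in batch 2 and -0.17 in batch 5, and that of Fkbp5 by -0.24, -0.41 and -0.14. For Sgk1 the differences were -0.54 in batch 1, 0.93 in batch 2 and -0.80 in batch 5. In batch 2 the 3 EXT mice had Sgk1 levels of 7.64, 7.78 and 8.05, and 2 of them exceeded all 5 TA mice of that batch, whose levels ran from 6.32 to 7.73. Without batch 2 the model gave -0.73 for Sgk1 (SE 0.27, unadjusted p = 0.0116, adjusted p = 0.416 in limma), and without batch 5 it gave 0.31 (SE 0.32). A test of the difference between the 3 batches in limma gave F = 5.00 for Sgk1 (p = 0.0156, adjusted p = 0.136), F = 2.00 for Fkbp4 (adjusted p = 0.392) and F = 0.69 for Fkbp5 (adjusted p = 0.704). A batch difference at an unadjusted p under 0.05 was seen for 21.6% of all genes.

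**Figure D2:**
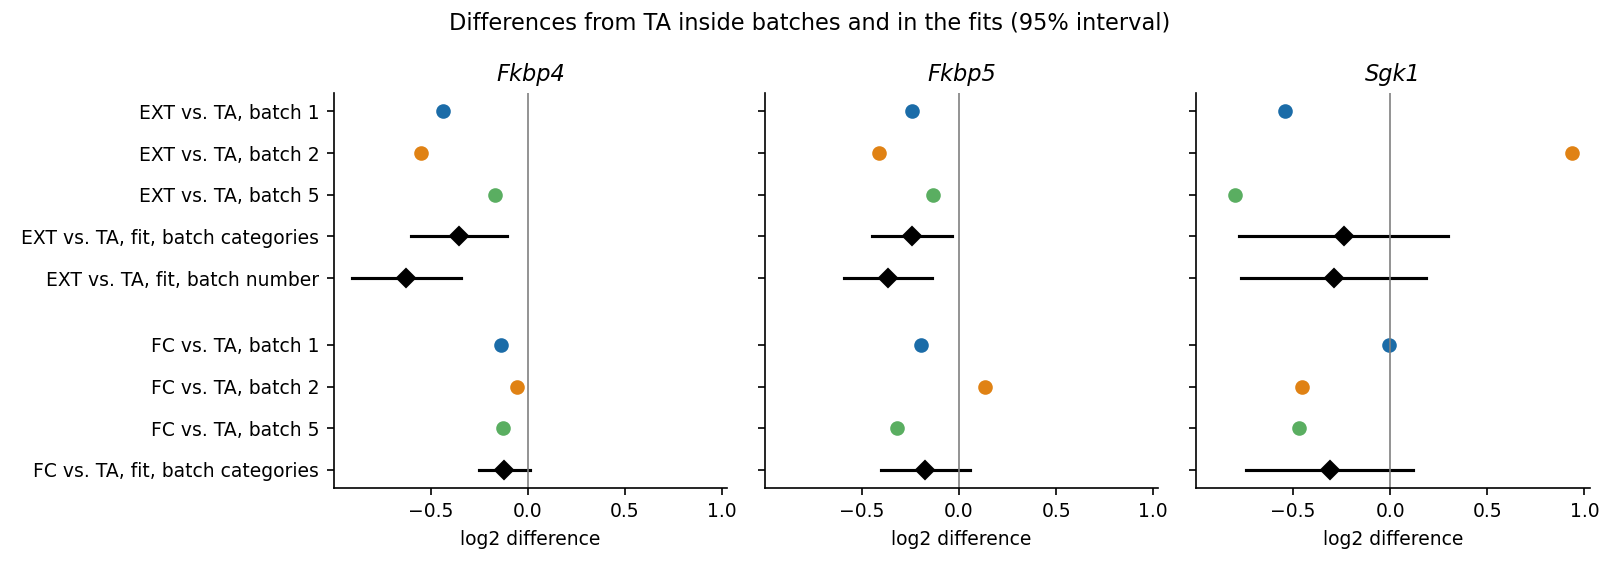
Differences from TA mice (log2, horizontal axis) for each gene: coloured points are differences of means inside batches 1, 2 and 5, and black diamonds are the model estimates with their 95% intervals. For EXT vs. TA, Fkbp4 and Fkbp5 points lie below 0 in the 3 batches, while Sgk1 lies at 0.93 in batch 2 and at -0.54 and -0.80 in the others.

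After conditioning alone the differences from TA were smaller than after extinction for Fkbp4 and Fkbp5, and slightly larger for Sgk1. The differences between these contrasts, which share the TA mice, were not tested. In FC vs. TA, Fkbp4 differed by -0.12 (SE 0.06, 95% interval -0.25 to 0.01), Fkbp5 by -0.17 (SE 0.11, 95% interval -0.40 to 0.06) and Sgk1 by -0.31 (SE 0.21, 95% interval -0.74 to 0.12). The adjusted p-values from limma were 0.33, 0.433 and 0.454. No gene passed the adjusted threshold in limma in FC vs. TA, and 16.8% (1379 genes) had an unadjusted p under 0.05, none of these 3 among them. Within batches Fkbp4 was slightly lower in FC in all 3 (-0.14, -0.06 and -0.13), Fkbp5 differed by -0.19, 0.13 and -0.32, and Sgk1 by -0.01, -0.45 and -0.47.

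EXT and FC mice had the same conditioning, and differed in the extinction session, its new context, the stay in the animal facility and the day since shock, which cannot be told apart in EXT vs. FC. The differences were -0.22 for Fkbp4 (SE 0.15, 95% interval -0.53 to 0.08), -0.04 for Fkbp5 (SE 0.14, 95% interval -0.34 to 0.25) and -0.02 for Sgk1 (SE 0.24, 95% interval -0.50 to 0.47). No gene passed in limma, and 4.19% (344 genes) had an unadjusted p under 0.05, again without these 3. For Sgk1 the interval still allows a clear difference in either direction. With both sexes together, the 95% intervals of FC vs. TA and EXT vs. FC included 0 for all 3 genes, and those of EXT vs. TA left out 0 for Fkbp4 and Fkbp5.

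Each sex was also fitted alone, with its own batch terms. In males, EXT vs. TA was -0.19 for Fkbp4 (SE 0.11), -0.27 for Fkbp5 (SE 0.10) and -0.31 for Sgk1 (SE 0.32). In females it was -0.52 for Fkbp4 (SE 0.21), -0.23 for Fkbp5 (SE 0.22) and 0.14 for Sgk1 (SE 0.33). Mice in batches without the other group in that sex do not bear on the size of these differences. EXT and TA females shared batches 1, 2 and 5, and EXT and TA males shared batches 2 and 5. For Fkbp4 in batch 2, female mouse 21 (EXT, 7.08) was compared with mouse 1 (TA, 8.36) alone. In batch 5, female mouse 24 (EXT, 7.89) was compared with mice 4 and 5 (TA, 8.06 and 7.94). How far the female Fkbp4 value rests on batch 2 was not tested. Unadjusted p-values under 0.05 were reached by Fkbp5 in males (p = 0.0148 in limma, against 12.5% of all genes) and by Fkbp4 in females (p = 0.0263 in limma, against 13.8% of all genes), and the lowest adjusted p was 0.346. The male minus female difference was tested in a separate model over both sexes with shared batch terms, so it need not equal the gap between the values of the single-sex fits. It was 0.01 (SE 0.23) for Fkbp4, -0.03 (SE 0.19) for Fkbp5 and -0.64 (SE 0.48) for Sgk1, none of them past the threshold in limma (adjusted p of at least 0.924). In FC vs. TA, Fkbp5 differed by -0.47 in females alone (SE 0.16, unadjusted p = 0.0104, adjusted p = 0.282 in limma) and by 0.02 in males alone (SE 0.14). Sgk1 differed by -0.57 in males alone (SE 0.24, 95% interval -1.08 to -0.06, unadjusted p = 0.0311, adjusted p = 0.337 in limma) and by -0.08 in females alone (SE 0.28). In the model over both sexes the male minus female difference in FC vs. TA was 0.40 for Fkbp5 (SE 0.21, adjusted p = 0.553 in limma) and -0.54 for Sgk1 (SE 0.41, adjusted p = 0.704 in limma).

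Markers of other cells were present in these pull-downs and varied between mice. In the list called Crh neuron markers here, 12 genes had a value, and Slc32a1 had no row. They summed to 3338.91 to 8504.66 CPM in TA, 3491.04 to 8517.03 in FC and 1585.75 to 8216.22 in EXT. The list holds Crh, the GABAergic genes Gad1 and Gad2, several neuropeptide genes, and Sst and Prkcd. The paper names Sst and Prkcd as marking central amygdala populations beside the Crh one, so these sums do not measure Crh cells alone. Of 14 oligodendrocyte markers 10 had a value, with sums of 1460.88 to 6577.46 in TA, 1727.09 to 18889.7 in FC and 1909.82 to 13679.6 in EXT. The 10 astrocyte markers summed to 687 to 2683 in TA, 955 to 2316 in FC and 978 to 3482 in EXT. Choroid plexus was represented by 4 of 12 markers (Ttr, Enpp2, Kl and Clic6), with sums of 187 to 27465 in TA, 673 to 19373 in FC and 186 to 51048 in EXT, while its defining markers Folr1, Aqp1 and Kcne2 had no row. Endothelium was represented by 2 of 10 markers (Itm2a and Slc2a1, 21.0 to 193 over all mice), and its defining Cldn5 and Pecam1 had no row, nor did the microglial Cx3cr1 and Csf1r. In bulk RNA, fewer cells of a type and less RNA per cell cannot be told apart.

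The batches with the lowest Fkbp4 also had the lowest Crh neuron markers. Their median sum was 2124 CPM in EXT mice of batch 3 and 1812 in the mouse of batch 4, against 6062 in EXT mice of batch 5. Oligodendrocyte sums ran the other way, with medians of 6593 in batch 3 and 13679.6 in batch 4 against 3228 in batch 5. With the mean of the Crh neuron markers as a covariate and batch as categories, the EXT vs. TA difference of Fkbp4 was -0.24 (SE 0.10, adjusted p = 0.338 in limma) and that of Fkbp5 -0.21 (SE 0.10, adjusted p = 0.387 in limma). Library size moved with the groups as well, and with it as a covariate the differences were -0.26 for Fkbp4 (SE 0.15) and -0.22 for Fkbp5 (SE 0.13), with an adjusted p of 0.88 for both in limma. The part of either in the group differences was not tested further.

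Within batch and group, the 3 genes varied largely on their own. Over the 39 mice in the 8 batch-by-group cells with at least 3 mice, deviations from the cell mean were compared in 24 relations, each with a permutation test that shuffled mice 100000 times inside cells. Fkbp4 and Fkbp5 had r = 0.15 (rho = 0.06, permutation p = 0.404 and 0.733, adjusted p = 0.744 and 0.792), and r was 0.01 without the 2 mice farthest from the median. Fkbp4 and Sgk1 had r = 0.21 (rho = 0.14, permutation p = 0.273 and 0.439, adjusted p = 0.596 and 0.792), and 0.07 without those mice. Fkbp5 and Sgk1 had r = -0.11 (rho = -0.06, permutation p = 0.5 and 0.753, adjusted p = 0.744 and 0.792), and -0.12 without those mice. Over the 39 mice together, those high in one of the genes were thus not reliably high in another. By group, in the order TA, FC and EXT, Fkbp4 and Fkbp5 had r = -0.21, 0.20 and 0.38. Fkbp4 and Sgk1 had -0.27, 0.10 and 0.47, and Fkbp5 and Sgk1 -0.13, -0.35 and 0.18. Differences between groups in these r were not tested.

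Of the 24 relations, 2 passed the adjustment, and each tied a gene to markers of another cell type. Fkbp5 was lower in mice with higher oligodendrocyte markers (r = -0.56, rho = -0.52, permutation p = 0.00395 and 0.00342, adjusted p = 0.0474 and 0.041), with r = -0.53 without the 2 farthest mice. Sgk1 was higher in mice with higher choroid plexus markers (r = 0.55, rho = 0.52, permutation p = 0.00053 and 0.00155, adjusted p = 0.0127 and 0.0372), with r = 0.58 without the 2 farthest mice. Sgk1 and oligodendrocyte markers had r = 0.32 (rho = 0.32, permutation p = 0.0504 and 0.0614, adjusted p = 0.332 and 0.334, r = 0.21 without the 2 farthest mice). Fkbp4 had r = 0.39 with the Crh neuron markers (rho = 0.15, permutation p = 0.135 and 0.447, adjusted p = 0.463 and 0.792). This r fell to 0.15 without the 2 farthest mice. In deviations from a linear fit on batch, group and sex over all 44 mice, those 2 included, it was 0.56.

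Within batches, the choroid plexus markers and Sgk1 differed between EXT and TA in the same directions. The median marker sum in batch 2 was 34306 CPM in EXT and 2709 in TA, and in batch 5 it was 3399 in EXT and 15046 in TA. In batch 1 the medians lay closer, at 1566 in EXT and 2091 in TA. With those markers as a covariate, the sex-adjusted EXT vs. TA difference of Sgk1 was -0.37 (SE 0.46) in batch 1, 0.38 (SE 0.43) in batch 2 and -0.37 (SE 0.34) in batch 5, against -0.61 (SE 0.51), 0.90 (SE 0.43) and -0.78 (SE 0.34) without them. The test of the batch difference in limma then gave F = 0.89 (p = 0.424, adjusted p = 0.683). These markers were chosen as a covariate after the data of the same mice were seen. Whether they account for the batch difference of Sgk1 was not tested.

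**Figure D3:**
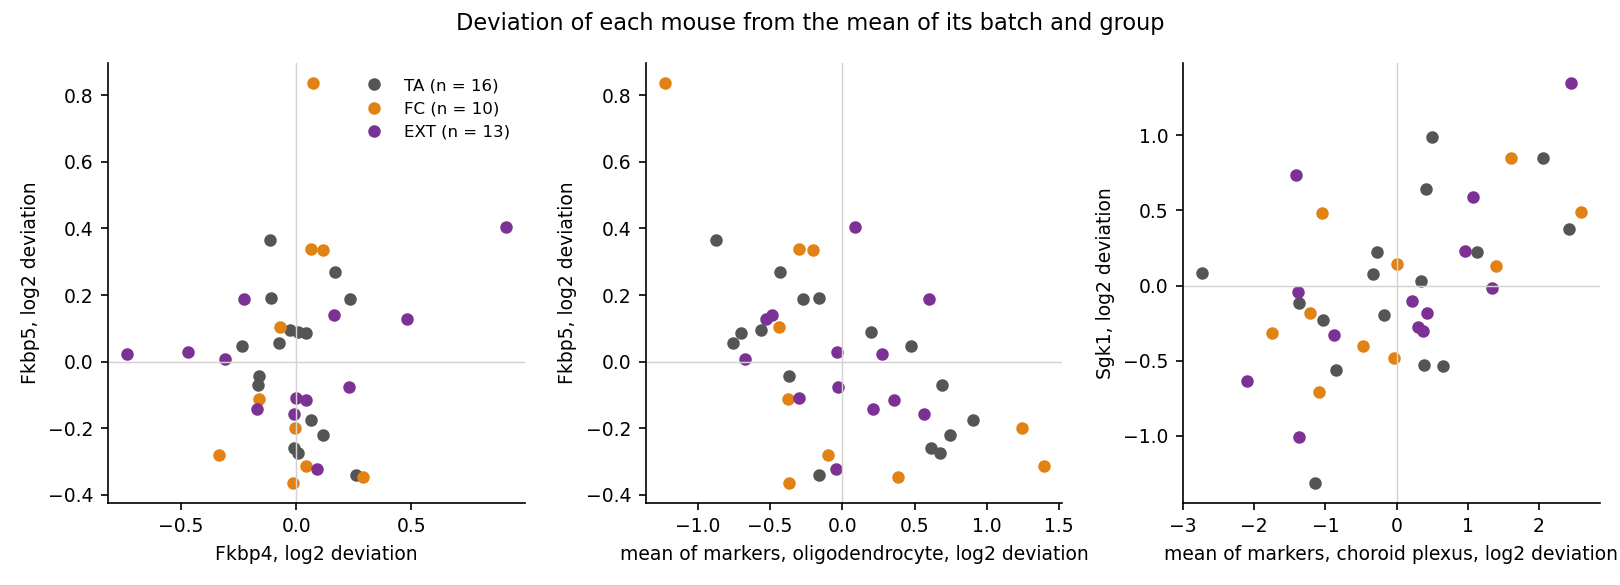
Deviation of each of 39 mice from the mean of its batch and group (log2 on both axes), coloured by group. Fkbp4 and Fkbp5 show no clear relation (r = 0.15), Fkbp5 falls as oligodendrocyte markers rise (r = -0.56), and Sgk1 rises with choroid plexus markers (r = 0.55).

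The genes most like each of the 3 differed from one gene to the next. By Pearson's r of the same deviations over 39 mice, given as a description, Fkbp4 was most like Got1 (0.88), Nmt1 (0.87), Acot7 (0.85), Snx17 (0.85) and Aldoa (0.85). Among its HSP90 partners, Stip1, which links HSP70 to HSP90, came at place 8 of 8202 genes (r = 0.83), Hsp90aa1 at place 80 (r = 0.75) and Hsp90ab1 at place 117 (r = 0.73). Hspa8 came at place 657 (r = 0.54), Ptges3 at 1982 (r = 0.27) and Fkbp5 at 2816 (r = 0.15). The largest Fkbp4 deviations were those of mice 23 (0.91) and 25 (-0.73) of EXT batch 3, and these r were not recomputed without them. Fkbp5 was most like Cdc23 (0.79), Rab3gap2 (0.72), Mapk14 (0.70), Ip6k1 (0.69) and Fam131a (0.68), and Sgk1 was most like Usp25 (0.76), Strip2 (0.72), Sh3bgrl2 (0.71), Gga2 (0.71) and Plin3 (0.71). The glucocorticoid-induced genes examined were spread widely in their likeness to Sgk1. The phosphatase gene Dusp1 came at place 213 (r = 0.51), the clock gene Per1 at 361 (r = 0.45) and Nfkbia at 684 (r = 0.38). Klf9 came at place 1908 (r = 0.20), Errfi1 at 2617 (r = 0.12), Tsc22d3 at 3789 (r = 0.03) and Fkbp5 at 5531 (r = -0.11). The receptor gene Nr3c1 came at place 7800 (r = -0.41).

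Among the receptor and its HSP90 machinery, a list that includes Fkbp4 and Fkbp5, most genes had lower values in EXT mice. All 26 listed genes had a value, and 21 were lower and 5 higher in EXT vs. TA, where 3975 of all 8203 genes were lower, with a median log2 fold change of -0.24 against 0.01 over all genes. None passed the adjusted threshold, while 10 lower genes, the 2 members included, and 1 higher gene had an unadjusted p under 0.05, against 11.0% of all genes that were lower at that level. With batch as a number, 14 passed as lower, against 11.0% of all genes, and 1 as higher, with a median of -0.32. In FC vs. TA 19 of the 26 were also lower (median -0.04). The Crh neuron markers ran alike in EXT vs. TA, with 11 of 12 lower and a median of -0.21, and their part in the list's values was not tested. The HSP70-related Hspa4 differed by -0.49 (SE 0.16), Hsph1 by -0.37 (SE 0.09), Stip1 by -0.35 (SE 0.11), the HSP90 co-factor Chordc1 by -0.33 (SE 0.10), the HSP40 gene Dnajb1 by -0.29 (SE 0.11) and the kinase-loading co-chaperone Cdc37 by -0.24 (SE 0.10), each with an adjusted p between 0.133 and 0.181 in limma.

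HSP90 itself pointed the same way, with -0.30 (SE 0.14) for Hsp90ab1 and -0.28 (SE 0.15) for Hsp90aa1, and the HSP70 gene Hspa8 differed by -0.27 (SE 0.14). The other tetratricopeptide co-chaperones of the receptor, Ppid and Ppp5c, differed by -0.25 (SE 0.13) and -0.12 (SE 0.08), and p23 (Ptges3) by -0.05 (SE 0.08). Bag1, a co-chaperone of HSP70 that restrains the receptor, was higher by 0.31 (SE 0.12, adjusted p = 0.168 in limma). The receptors themselves were near 0, with 0.03 (SE 0.08) for Nr3c1 and 0.16 (SE 0.16) for the mineralocorticoid receptor Nr3c2. For Nr3c1 the number coding of batch gave 0.31 (adjusted p = 0.0567 in limma).

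Other glucocorticoid-induced genes did not share one direction. Of 36 listed, 19 had a value, among them Fkbp5 and Sgk1, and 10 were lower and 9 higher in EXT vs. TA (median -0.05). Those with an unadjusted p under 0.05 were 5 lower genes, Fkbp5 among them, and no higher one, against 11.0% lower among all genes, and none passed the adjusted threshold. Dusp1 differed by -0.48 (SE 0.11, adjusted p = 0.133 in limma), the cell cycle inhibitor Cdkn1a by -0.31 (SE 0.13), the calcium-dependent kinase kinase Camkk1 by -0.25 (SE 0.10) and the EGF receptor inhibitor Errfi1 by -0.21 (SE 0.10). Smaller estimates were 0.07 (SE 0.13) for Tsc22d3, which encodes GILZ, 0.07 (SE 0.09) for Klf9, 0.04 (SE 0.18) for Per1 and -0.14 (SE 0.13) for Nfkbia. With batch as a number these were 0.22 for Tsc22d3, 0.05 for Klf9, -0.20 for Per1 and 0.04 for Nfkbia. In FC vs. TA, Tsc22d3 differed by 0.34 (SE 0.10, unadjusted p = 0.00222 in limma). Ddit4 had no row.

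**Figure D4:**
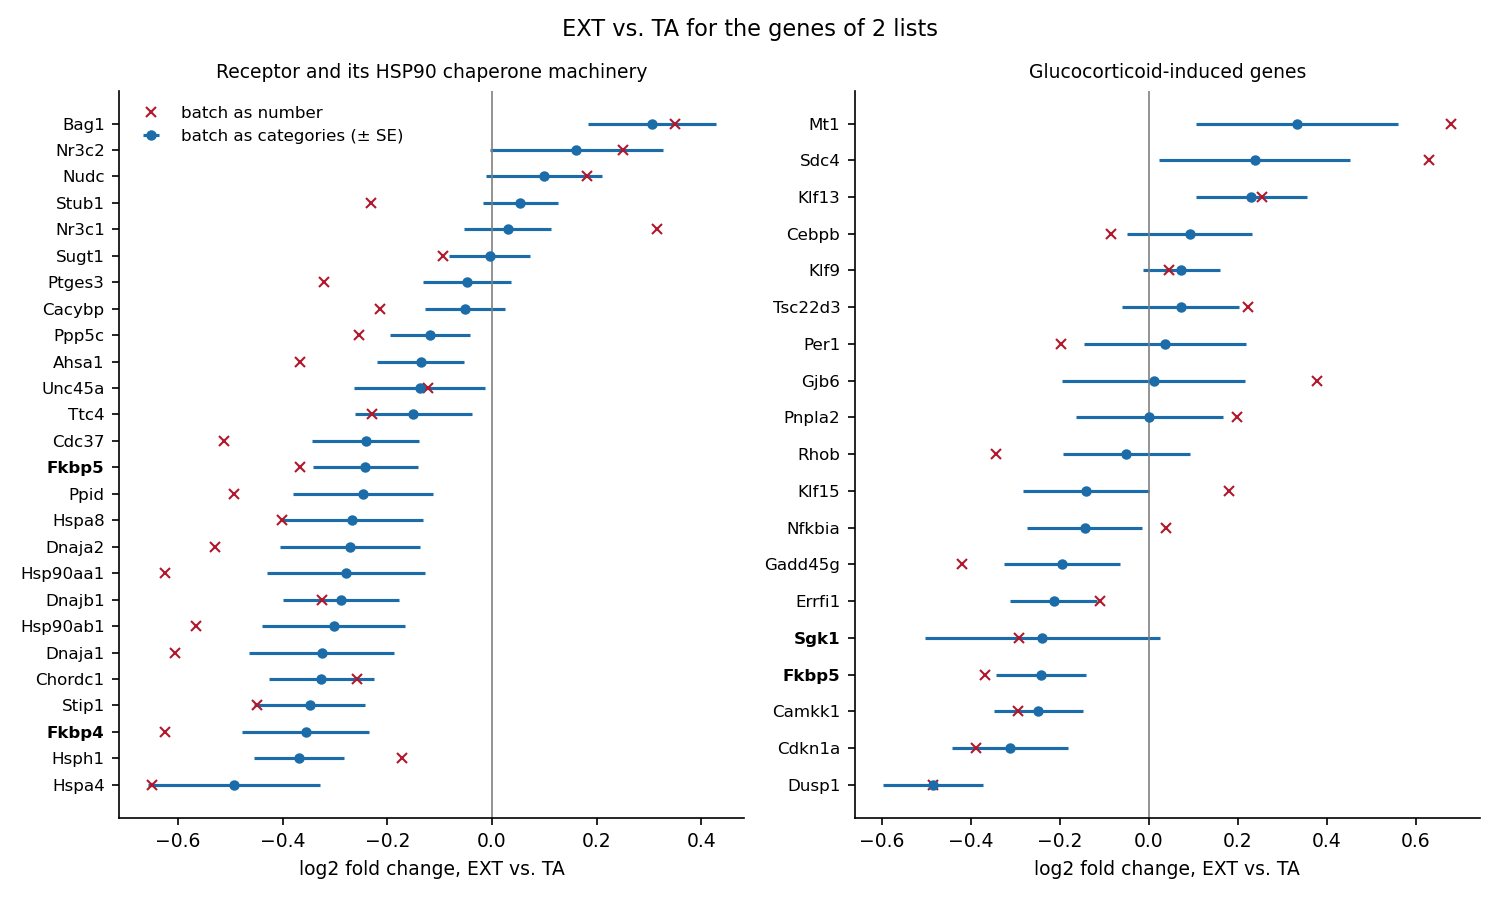
Log2 fold change in EXT vs. TA (horizontal axis) for each gene of the receptor and HSP90 list (left) and of the glucocorticoid-induced list (right), as points with SE for batch as categories and crosses for batch as a number. In the first list 21 of 26 points lie below 0, in the second 10 of 19.

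The FKBP family had no common direction. Of 17 family members 10 had a value, and 6 were higher and 4 lower in EXT vs. TA (median 0.11). Fkbp2, which encodes an FKBP of the endoplasmic reticulum, was higher by 0.32 (SE 0.13, unadjusted p = 0.0211, adjusted p = 0.174 in limma). The abundant Fkbp1a, encoding FKBP12, differed by 0.11 (SE 0.09) and the mitochondrial Fkbp8 by 0.11 (SE 0.08).

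Around SGK1, 21 of 26 listed kinases, activators and substrates had a value, with 12 lower and 9 higher in EXT vs. TA (median -0.08). With an unadjusted p under 0.05, as for 21.1% of all genes, there were 4 lower genes and no higher one: Mlst8, a subunit of the mTOR complexes (-0.34, SE 0.11), the ubiquitin ligase Nedd4 (-0.35, SE 0.15), Ndrg4 (-0.33, SE 0.13) and Ndrg3 (-0.22, SE 0.09). None passed the adjusted threshold, while with batch as a number 6 passed as lower and 5 as higher, against 21.4% of all genes. The kinase Sgk3 differed by -0.06 (SE 0.26), and the SGK1 substrates Nedd4l and Ndrg2 by -0.08 (SE 0.11) and 0.25 (SE 0.19). Ndrg2, which astrocytes also express strongly, was higher in FC vs. TA by 0.53 (unadjusted p = 0.00117 in limma). Receptor coregulators were evenly split, with 11 of 21 higher and 10 lower (median 0.00). Med1 (0.22, SE 0.10) was higher, and Hdac2 (-0.24, SE 0.11) and Smarca4 (-0.21, SE 0.10) were lower, at an unadjusted p under 0.05.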

How the data were processed

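Ribosome-bound RNA of 44 mice was sequenced in 50-bp paired-end mode. Per the submitters' processing notes and the study's methods, reads were trimmed with Trimmomatic 0.36, aligned to GRCm38 with STAR and handled with SAMtools, and genes above a minimum abundance in all samples were kept with edgeR. Outlying libraries had been removed. The deposited values are voom log2 values, that is log2 CPM with an offset of 0.5 reads, for 8203 genes. Whole reads were solved from them (360932 of 360932 values within 0.05 reads of a whole number) and give the library sizes quoted. Strand use in counting is not given in the sources used here.

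Pairwise fits used limma 3.58.1 in R 4.3.3 on the 2 groups compared, with batch as categories and sex, Benjamini-Hochberg adjustment over 8203 genes and a threshold of 0.05. The study controlled for batch and sex without stating the coding, so batch as a number was the first alternative. The other alternatives changed the scaling, weights, filter (mean log2 value of at least 5), covariates or mice used, and fits were checked on simulated data. Each sample was 1 mouse. Genes named outside the 3 were fixed regulators, up to 6 further genes per list with the smallest unadjusted p under 0.05, and the 5 most alike genes. The genes and lists were chosen with earlier results of these data known. The fits with batches 1, 2 or 5 handled separately, with Crh neuron markers, with choroid plexus markers in the batch test, and with library size beside the number coding were chosen after seeing the data. Some listed genes are not reported here.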

Additional observations from a re-analysis of the deposited data

Results flagged for a closer look

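Sgk1 of the EXT mice in batch 5 had 1 mouse far from the others. Its level was 8.26, while the other 4 mice lay between 6.27 and 6.81, and the gap to the nearest was 0.73 of the whole range of the 5. In the same mouse the 4 choroid plexus markers summed to 17888 CPM, against 493 to 3721 in the other 4. Without that mouse the EXT vs. TA difference of Sgk1 was -0.31 in place of -0.24. Of 39 cells of 4 to 10 mice examined this was the only one to stand out in this way. Chance alone flags about 1 cell in 20, so 1 flag among 39 cells is no more than chance gives. The part of the markers in this value was not tested.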

How the results depend on the processing

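The EXT vs. TA difference of Fkbp4 and Fkbp5 was negative under every alternative run, but its size and adjusted p depended on the batch term and the mice used. Fkbp4 passed in limma with batch as a number (-0.62, adjusted p = 0.013), with no batch term (-0.62, adjusted p = 0.0125) and without batches 3 and 4 (-0.35, adjusted p = 0.0421). Fkbp5 passed with batch as a number (-0.37) and with no batch term (-0.39, adjusted p = 0.0259). Leaving out 1 mouse at a time gave -0.41 to -0.26 for Fkbp4, with 1 fit past the threshold (adjusted p = 0.0423, without mouse 23 of EXT batch 3), and -0.30 to -0.18 for Fkbp5. Fkbp4 shrank to -0.22 with array weights (adjusted p = 0.209) and -0.15 in batch 5 alone (adjusted p = 0.613), and was -0.54 without batch 5. Fkbp5 shrank to -0.14 in batch 5 alone (adjusted p = 0.683). Sgk1 in EXT vs. TA turned positive with library size as a covariate (0.061) and without batch 5 (0.31), and was -0.73 without batch 2, -0.72 in batch 5 alone, -0.55 with array weights, -0.13 with choroid plexus markers as a covariate, -0.12 without batch 1, -0.010 with batch as a number and library size, and -0.38 (without mouse 51) to -0.12 (without mouse 28) leaving out 1 mouse.

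The number of genes past the threshold in EXT vs. TA, 2 in the fit reported, was 1755 with batch as a number, 1614 with no batch term and 409 without batches 3 and 4. It was 11 with choroid plexus and 4 with oligodendrocyte markers as a covariate, 6 without batch 5, 1 with all 3 groups in one fit or with the filter at 5, and 0 with voom weights, with library size or Crh neuron markers as a covariate under either coding of batch, in batch 5 alone and without batch 1 or 2. Leaving out 1 mouse gave 0 to 472, the highest without mouse 23. In FC vs. TA the count was 3 with the filter at 5 and 0 to 3 leaving out 1 mouse, in place of 0, and in EXT vs. FC it was 4 with array weights in place of 0. The cause was not tested.

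EXT vs. FC values near 0 changed sign. Fkbp5 was 0.070 with library size as a covariate and -0.13 to 0.032 leaving out 1 mouse. Sgk1 was 0.053 with batch as a number, 0.083 with no batch term, 0.022 with all 3 groups, 0.19 with library size, 0.013 with no sex term, 0.033 with oligodendrocyte markers, and -0.17 to 0.17 leaving out 1 mouse. The male minus female difference of Fkbp4 in EXT vs. TA was -0.085 with batch as a number. In deviations from a linear fit over all 44 mice, r of Fkbp4 was 0.33 with Fkbp5, -0.072 with Sgk1 and 0.56 with the Crh neuron markers. No paired analysis was possible because each mouse has its own number. With 16 mice in each of TA and EXT, Sgk1 had a 95% interval of -0.78 to 0.30. That interval spans differences of either sign, so the data do not settle the direction for Sgk1.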

Other observations

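Glial and choroid plexus markers differed between FC and TA more than Fkbp4, Fkbp5 and Sgk1 did. The 10 astrocyte markers were all higher in FC mice (median log2 fold change 0.55), 8 of them with an unadjusted p under 0.05 in limma, where 706 of all 8203 genes were higher at that level, for example Slc4a4 by 0.71, Acsbg1 by 0.68 and Slc1a2 by 0.59. The 4 choroid plexus markers were all lower (median -0.95), with Clic6 at -1.22 and Kl at -0.94. None of these passed the adjusted threshold. In EXT vs. TA the astrocyte median was 0.01 and the choroid plexus median -0.45. Among Crh neuron markers, Gad1 and Gad2, the enzymes of GABA synthesis, differed in EXT vs. TA by -0.42 (SE 0.14) and -0.24 (SE 0.09), and Crh by -0.32 (SE 0.22).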
